A study of Homo sapiens with 18 samples.

Results

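Accessible chromatin of GFP low Raji cells at 48 h was compared with that of GFP low Raji cells at 24 h. Raji is an established line grown from a Burkitt lymphoma, a tumour of germinal centre B cells. Members were chosen by label: 6 of the 18 columns of the deposited table are GFP low at 48 h or 24 h, with 3 columns per time, and all 71318 peaks were compared. The series follows degradation of SMARCA4 (BRG1) through an auxin-inducible degron, and every sample carries the genotype label Smarca4+/+. GFP low and GFP high cells were profiled at 24, 48 and 72 h. Neither what GFP reports nor the auxin dose is given in the sources used here, so the groups are named only by GFP level and time. The same interval in GFP high cells, also 48 h against 24 h, uses other libraries and is given beside the GFP low values.

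ATAC-seq uses a transposase that cuts and tags DNA where nucleosomes and other proteins leave it exposed, so the reads that pile up in a peak measure how open that stretch is. SMARCA4 is an ATPase of the BAF complex, which slides and evicts nucleosomes, above all at enhancers. In the germinal centre, B cells move between a dark zone, where they divide and mutate their antibody genes as centroblasts, and a light zone, where as centrocytes they receive CD40 and antigen receptor signals and turn into memory or plasma cells.

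The libraries of GFP low cells held 28161886 counts at 48 h and 27646157 at 24 h, after the 3 columns of each time had been summed. Columns of one time were compared first. Their squared difference per peak, divided by its counting variance, averaged 1.78 to 1.80 in the 6 pairs within a time, and was 1.79 in the weakest eighth of peaks and 1.81 in the strongest. The labels call them replicates, but nothing says that they came from separate cultures, and no spread beyond counting noise of constant size was seen between them. Between 48 h and 24 h it averaged 2.76 to 2.96 over the 9 pairs of columns, and was 2.23 in the weakest eighth of peaks and 3.94 in the strongest. The 3 columns of a time were therefore counted as 1 library. No p-value is given, peaks are called by size of change, and each log2 difference carries a 95% counting interval that covers counting error only. Variation between cultures was not measured. Levels are CPM (reads in a peak scaled to the library's total), and every peak is 501 bp wide, so levels can be compared between peaks. Peaks at the B-cell genes MS4A1 (84.5 CPM at 48 h, 73.1 at 24 h), CD79B (24.6 and 29.7) and PAX5 (25.6 and 29.8) were open in both libraries.

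In GFP low cells the strong peaks that changed were higher at 48 h and mostly distal, while gene starts and 3 gene-dense chromosomes shifted down as a whole by smaller amounts. At 48 h, 245 of 71318 peaks were at least 2-fold higher than at 24 h (0.344%) and 149 were at least 2-fold lower (0.209%). Among the 58719 peaks that averaged at least 100 counts in the compared libraries, 1534 were at least 1.5-fold higher (2.61%) and 1099 at least 1.5-fold lower (1.87%), 2633 in all (4.48%). These 1534 and 1099 peaks are called higher and lower from here on. The counting interval of each lay away from no change, which the limits on fold and count ensure, so it adds no support. In GFP high cells over the same interval the balance was the other way, with 449 of 61269 peaks higher (0.733%) and 1489 lower (2.43%) by the same limit. At least 2-fold changes in GFP high cells numbered 19 higher (0.0266%) and 226 lower (0.317%).

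**Figure D1:**
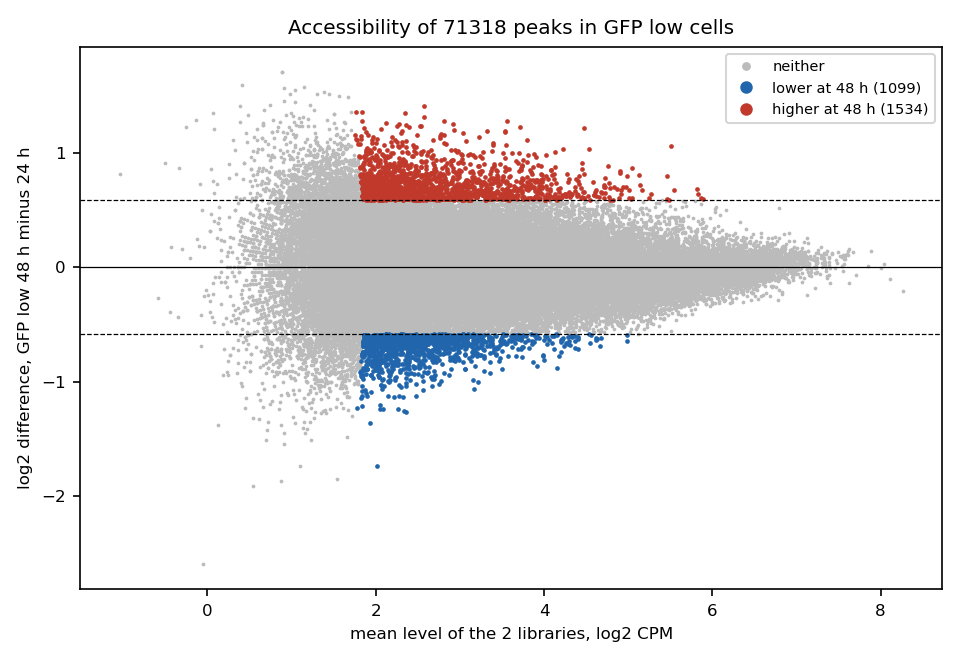
Each point is 1 of 71318 peaks, with its mean log2 CPM in the GFP low 48 h and 24 h libraries on the x axis and the log2 difference, 48 h minus 24 h, on the y axis; dashed lines mark 1.5-fold, and coloured points also have a mean count of at least 100. Changes past 1.5-fold are seen at weak and middle levels, and at the strongest levels they are rises.

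The spread of the log2 differences was wider than counting error at every level. Its SD was 0.28 over peaks averaging at least 100 counts, where counting error gives 0.18. It was 0.15 over the 6583 peaks averaging at least 1000 counts, where counting error gives 0.071. Higher peaks outnumbered lower ones more clearly as peaks got stronger. At 300 counts or more, 320 were higher and 117 lower. At 1000 or more, 14 were higher and none of the 6583 was lower by 1.5-fold.

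The 8 largest rises near genes lay in gene bodies or beside genes, away from gene ends. A peak 49.6 kb from SNTB1, which encodes a syntrophin of the dystrophin-associated complex, had 9.05, 9.36 and 10.3 CPM in the 3 columns at 48 h and 3.71, 2.97 and 4.01 CPM at 24 h. Columns of the 2 times did not overlap, and the log2 difference was 1.40 (counting interval 0.96 to 1.85). In EFNA5, which encodes the ephrin-A5 ligand of Eph receptors, the peak at chr5:107513663-107514163 had 19.1, 18.9 and 17 CPM at 48 h and 7.53, 7.53 and 7.44 CPM at 24 h. This was the best supported of the 8 by counts, with a difference of 1.28 (0.97 to 1.59). A peak in PTPN14, which encodes a protein tyrosine phosphatase, had 4.75, 6.02 and 5.33 CPM at 48 h and 1.20, 2.97 and 2.0 CPM at 24 h, a difference of 1.36 (0.77 to 1.94). The other rises were in or near TTLL11, a tubulin-modifying enzyme (1.28), SV2C, a synaptic vesicle protein (1.27), HDAC9, a histone deacetylase (1.26), NKAIN2 (1.25), and PCDH15, a protocadherin of hair cells (1.24). All 8 had columns that did not overlap between times. Here and below, peaks were picked by the size of change in these same columns. Columns that lie apart therefore describe their scatter and add no support. GFP high cells did not show rises of this size: their largest value among the 8 was 0.46 at HDAC9, and the EFNA5 peak had 22.3 CPM at 48 h and 18.1 CPM at 24 h there.

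The 8 largest falls near genes were also distal. In FAR2, which encodes a fatty acyl-CoA reductase, a peak had 3.17, 2.45 and 3.98 CPM at 48 h and 6.69, 8.79 and 8.03 CPM at 24 h, a log2 difference of -1.26 (-1.73 to -0.79). In RTTN, which encodes a protein needed for centriole assembly, the columns had 2.83, 3.45 and 3.30 CPM at 48 h and 8.25, 6.39 and 8.52 CPM at 24 h, a difference of -1.26 (-1.73 to -0.78). Neither pair of column sets overlapped. A peak 8.71 kb from XKR3 on chromosome 22 had the largest fall, -1.36 (-1.91 to -0.81), but its columns spread more widely, at 1.92, 3.68 and 1.46 CPM at 48 h and 8.13, 4.79 and 5.38 CPM at 24 h. The remaining falls were at B4GALT6, a lactosylceramide synthase (-1.24), SIGLEC5, a sialic acid-binding lectin of leukocytes (-1.24), EPB41L4A (-1.23), DIP2C (-1.23) and STAMBPL1, a deubiquitinase (-1.21). SIGLEC5 has a closely related neighbour gene, and how reads that match more than 1 place were treated is not given in the sources used here. In GFP high cells the same 8 peaks differed by -1.11 (B4GALT6) to -0.0066 (DIP2C), and all 8 values were below 0.

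**Figure D2:**
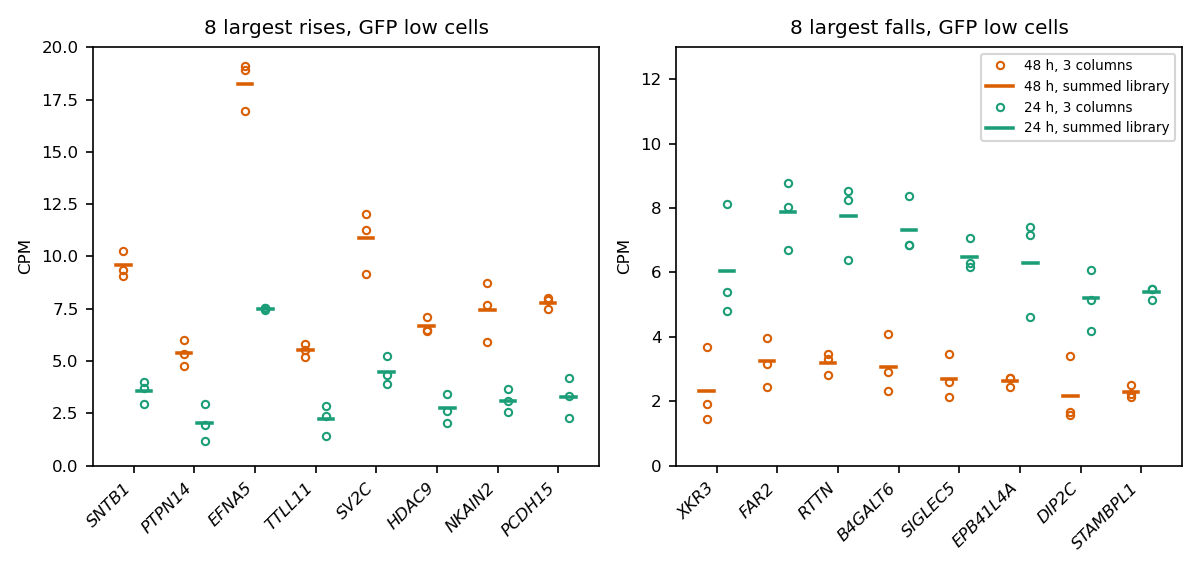
CPM of the 8 largest rises (left) and 8 largest falls (right) near genes in GFP low cells; open circles are the 3 columns of a time, counted as 1 library, and bars the summed library, with 48 h left of 24 h. For each gene the circles of the 2 times are separate, and the widest scatter is at XKR3.

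Some genes held several peaks that moved the same way. Genes with at least 2 higher peaks numbered 140, and 28 had at least 3. Genes with at least 2 lower peaks numbered 73, and 8 had at least 3. Of 14080 genes with a peak averaging at least 100 counts, 883 had a higher peak and 884 a lower one. A gene with many peaks reaches 2 or 3 more easily, and no expected number was computed. SNTB1 and GPD2, a mitochondrial glycerol-3-phosphate dehydrogenase, each had 4 higher peaks of 9, with medians over those 9 of 0.52 and 0.32. DLG2, a synaptic scaffold gene of great length, had 4 higher peaks of 41 and a median of 0.10. SEMA4D, a semaphorin of lymphocytes, had 4 higher peaks and 1 lower peak of 24. EFNA5 had 3 higher of 11, and 10 of those 11 were above 0. On the other side ABHD2 had 3 lower peaks of 8 and FYN, a Src-family kinase of lymphocytes, 3 of 19. MED26, a Mediator subunit on chromosome 19, had 3 of 9, and MRTFA, a coactivator of serum response factor on chromosome 22, 3 of 11. The medians over the peaks of MED26 (-0.31) and MRTFA (-0.30) were near those of all peaks on their chromosomes, -0.28 and -0.31. Peaks that lie near each other tended to differ alike in GFP low cells. Across neighbouring pairs of peaks, which share both libraries, Pearson's r of the log2 differences was 0.48 up to 2 kb apart (11907 pairs), 0.26 from 2 to 10 kb (12191 pairs), 0.22 from 10 to 50 kb (17251 pairs) and 0.18 from 50 to 200 kb (6925 pairs).

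The strongest changed peaks, singled out after their values were seen, were all rises. Of the 14 higher peaks averaging at least 1000 counts, 7 had no protein-coding gene within 50 kb. The largest, at chr7:13466819-13467319, was one of those 7. It had 65.9 CPM at 48 h and 31.6 CPM at 24 h, a log2 difference of 1.06 (0.90 to 1.22). GFP high cells moved the same way there, with 49.1 CPM at 48 h and 36.1 CPM at 24 h (0.44). A weaker peak nearby, at chr7:13457707-13458207, had 11, 12 and 11.6 CPM at 48 h and 5.02, 5.71 and 3.92 CPM at 24 h. ETS1, a transcription factor of lymphocytes, held another of the 14 in its gene body, with 59.1 CPM at 48 h and 37.1 CPM at 24 h, a difference of 0.67 (0.52 to 0.82). The ETS1 peak of GFP high cells had 63.4 CPM at 48 h and 49.3 CPM at 24 h (0.36). Others lay in MAML2, a Notch coactivator (0.60), in NBAS (0.60) and at an end of TPRG1 (0.64). No lower peak reached a 2-fold change at a mean count of at least 300, against 15 higher peaks that did. These 15 included peaks in PCLO, a presynaptic scaffold (20.0 CPM at 48 h, 8.52 at 24 h), ELK3, an ETS-family factor (24.7 and 12.3), FGF14 (17.3 and 7.61) and GPC6 (20.4 and 9.40).

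Position in the genome separated the higher peaks from the rest. Of the 1534 higher peaks 35 lay within 1 kb of a gene end (2.28%), 676 in gene bodies (44.1%) and 823 outside genes (53.7%). Of the 1099 lower peaks 169 lay at gene ends (15.4%), 512 in gene bodies (46.6%) and 418 outside genes (38%). Over all 58719 peaks the shares were 22.7% at gene ends, 41.9% in gene bodies and 35.4% outside genes. Gene-end peaks were stronger, with a median of 25.7 CPM at 24 h against 6.4 in gene bodies and 5.8 outside genes. Strong peaks pass a fold limit less often. In group 5 of 10 equal groups by level, 5.1% of gene-end peaks were lower, against 2.4% in gene bodies and 2.3% outside genes. Gene ends had the largest lower share in every group but the weakest and the strongest, where no gene-end peak was lower. Higher peaks were a median of 52.1 kb from the nearest gene end, against 15 kb for lower peaks and 14.5 kb for all. Those in gene bodies sat in genes with a median length of 197 kb, against 108 kb for lower peaks and 130 kb for all. The bulk of gene-end peaks shifted slightly down: the median log2 difference of the 13712 was -0.079, and 66.7% were below 0. The median was -0.0047 for 30795 gene-body peaks, a sign that several scalings turn round, and 0.027 for 26811 peaks outside genes. The order was opposite in GFP high cells, with medians of 0.090, -0.017 and -0.055. The gene-end median was below 0 in each of 10 groups of peaks by level in GFP low cells, at -0.038 to -0.13. It was below 0 in GFP high cells only in the 4 weakest groups and above 0 in the other 6. The 12202 peaks on annotated gene starts had a GFP low median of -0.080. Of the 11982 that averaged at least 100 counts, 17 were higher (0.14%) and 129 lower (1.08%), against 2.61% and 1.87% of all. The difference between the GFP levels was not tested, since each level and time has 1 library.

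**Figure D3:**
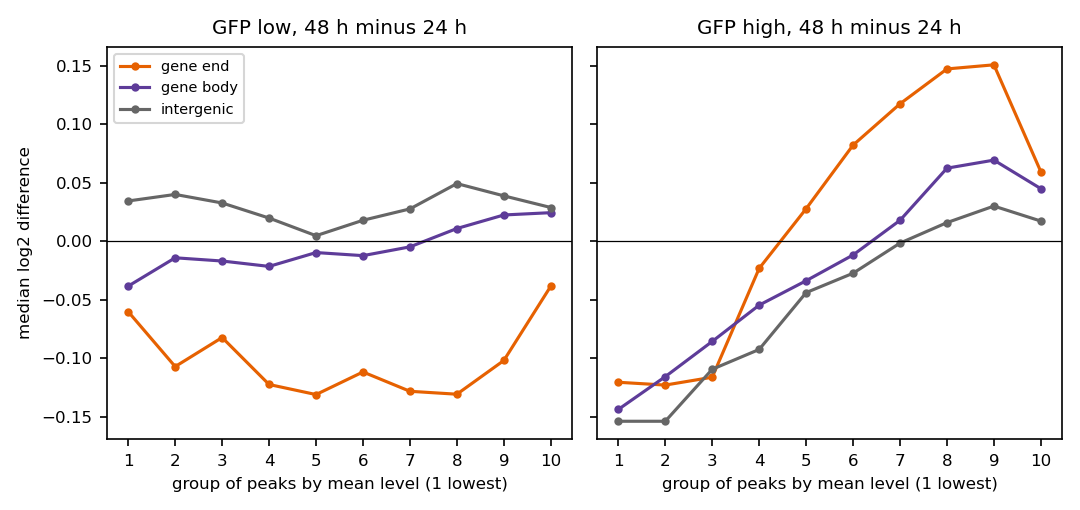
Median log2 difference, 48 h minus 24 h, of gene-end, gene-body and intergenic peaks in 10 equal groups of peaks by mean level, in GFP low (left) and GFP high cells (right). The gene-end line lies below the other lines in every group in GFP low cells, and above them from group 4 on in GFP high cells.

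Few gene ends changed past 1.5-fold, and those that did were of middling level. The largest rise at a gene end was at the start of TNFRSF1B, a receptor for tumour necrosis factor, with 7.13, 5.57 and 8.63 CPM at 48 h and 4.30, 1.26 and 4.31 CPM at 24 h, a difference of 1.09 (0.62 to 1.57). Its size rested on 1 column, the 24 h column with 1.26 CPM, without which it was 0.73. The others were at TRIL, a Toll-like receptor cofactor (0.98), ZBTB44 (0.91), MMP26, a matrix metalloproteinase (0.88), and FAM217B (0.86), whose columns overlapped between times. FAM217B came to 0.56, under 1.5-fold, without one 24 h column. The start of USF2, a factor that binds E-boxes, fell to 4.52, 4.68 and 5.04 CPM at 48 h, against 11.4, 7.30 and 10.1 CPM at 24 h, a difference of -1.0 (-1.40 to -0.60). GFP high cells had 7.56 CPM at 48 h and 6.19 CPM at 24 h at USF2, an interval that includes no change. An end of RHOT1, which encodes a mitochondrial transport GTPase, had 4.64, 6.02 and 4.56 CPM at 48 h and 9.80, 8.22 and 10.7 CPM at 24 h in GFP low cells, a difference of -0.92 (-1.31 to -0.53). At RHOT1 GFP high cells moved the other way, with 9.22 CPM at 48 h and 6.15 CPM at 24 h (0.58). Other falls were at SMIM38 (-1.14), AEBP2, a cofactor of Polycomb complex PRC2 (-0.94), and G2E3, a ubiquitin ligase (-0.92).

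Promoter windows from RefSeq (GRCh38.p14, 250 bases before to 50 after a start) lay over 8302 peaks. Of the 8147 that averaged at least 100 counts, 12 were higher (0.15%) and 100 lower (1.23%), against 2.61% and 1.87% of all. The GC content of the windows was a median of 54.0% for the 12 higher, 65.3% for the 100 lower and 65.3% for all. The 4 sequences below are examples of each direction: both of the first pair were higher at 48 h, and both of the second were lower. They were picked for their contrast in base composition and motifs, with values known, from the 4 largest changes in each direction. The windows not shown contrast less: ORAI3 (65.7% GC) and ITIH1 (53.7% GC) were lower, by -0.89 and -0.82, while MARK2 (60.0% GC) and PRDM10 (54.7% GC) were higher, by 0.81 and 0.66. The 4 printed windows therefore do not stand for the higher and lower sets, whose counts follow them. CDC25B encodes a phosphatase that starts mitosis, and its peak had 9.60 CPM at 48 h and 5.74 CPM at 24 h (0.73). DMD encodes dystrophin, the partner of the syntrophin family, and its peak had 19.1 CPM at 48 h and 12 CPM at 24 h (0.67). TRABD had 6.51 CPM at 48 h and 11.5 CPM at 24 h (-0.82), and USF2 is described above. The windows are chr20:3799798-3800097 on the plus strand for CDC25B, chrX:33128379-33128678 on the minus strand for DMD, chr19:35268712-35269011 on the plus strand for USF2 and chr22:50185663-50185962 on the plus strand for TRABD. Capitals mark the octamer ATGCAAAT and E-box CAGCTG in CDC25B, the E-box CACGTG and TATA motif TATAAA in DMD, the E-box CAGCTG and GC box GGGGCGG in USF2 and GC boxes in TRABD, on either strand.
CDC25B: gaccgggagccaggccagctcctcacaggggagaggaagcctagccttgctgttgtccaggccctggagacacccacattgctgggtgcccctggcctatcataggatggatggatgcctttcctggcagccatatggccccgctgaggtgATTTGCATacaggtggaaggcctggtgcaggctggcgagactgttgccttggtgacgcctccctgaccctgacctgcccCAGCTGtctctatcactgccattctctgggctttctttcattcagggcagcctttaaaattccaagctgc
DMD: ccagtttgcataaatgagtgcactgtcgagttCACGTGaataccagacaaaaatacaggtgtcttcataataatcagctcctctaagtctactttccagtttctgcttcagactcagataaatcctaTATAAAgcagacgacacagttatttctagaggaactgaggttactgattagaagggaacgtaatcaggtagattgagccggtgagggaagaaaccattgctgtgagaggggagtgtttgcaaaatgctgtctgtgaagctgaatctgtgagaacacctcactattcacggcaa
USF2: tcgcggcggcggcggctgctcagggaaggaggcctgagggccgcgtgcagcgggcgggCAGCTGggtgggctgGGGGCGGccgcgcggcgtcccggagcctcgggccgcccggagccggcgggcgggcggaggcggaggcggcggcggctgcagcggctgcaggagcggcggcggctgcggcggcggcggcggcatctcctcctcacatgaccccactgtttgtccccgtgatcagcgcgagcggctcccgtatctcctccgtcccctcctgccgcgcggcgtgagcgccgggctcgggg
TRABD: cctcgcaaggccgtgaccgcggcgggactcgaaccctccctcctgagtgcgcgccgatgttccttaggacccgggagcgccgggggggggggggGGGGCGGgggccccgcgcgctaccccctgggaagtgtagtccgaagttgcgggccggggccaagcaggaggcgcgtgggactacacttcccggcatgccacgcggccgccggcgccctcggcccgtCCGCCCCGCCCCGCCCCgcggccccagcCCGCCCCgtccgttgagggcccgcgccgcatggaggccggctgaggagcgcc

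These windows held 59.0% GC in CDC25B, 42.3% in DMD, 80.3% in USF2 and 79.0% in TRABD. GC boxes were in 0 of the 12 higher windows, 43 of the 100 lower windows (43.0%) and 50.1% of all windows over a peak. The octamer, bound by POU factors such as OCT2 of B cells, was in 3 of 12 higher windows, 1 of 100 lower windows and 1.63% of all. CAGCTG was in 6 of 12, 8 of 100 and 16.7%. An ETS motif, CCGGAAG, was in 1 of 12, 18 of 100 and 20.6%, and CCAAT in 6 of 12, 39 of 100 and 38%. No test was made of these 12 windows, and a match of letters is not a bound site. Across all 8302 windows, GC content and the log2 difference had r = -0.12 in GFP low cells and 0.22 in GFP high cells. From the lowest to the highest GC group of 5, the GFP low median was -0.070, -0.089, -0.087, -0.093 and -0.12. This pools peaks of unlike level. In level group 6 of 10 the lowest and highest GC groups had -0.072 and -0.26. They had -0.079 and -0.24 in level group 7, and -0.13 and -0.24 in level group 8. In level group 9 they had -0.099 and -0.14, and in the strongest, level group 10, -0.058 and -0.059.

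Peaks on chromosomes 17, 19 and 22, which are gene-dense, were broadly lower at 48 h in GFP low cells. Their medians over all peaks were -0.31 on chromosome 22, -0.28 on chromosome 19 and -0.22 on chromosome 17. The next lowest was -0.075 on chromosome 16, and the highest 0.052 on chromosome 4. Together the 3 chromosomes held 4779 peaks with a median of -0.26, and 83.2% were below 0. They held 305 of the 1099 lower peaks and 10 of the 1534 higher peaks. That was 7.94% and 0.26% of their 3843 peaks averaging at least 100 counts, against 1.87% and 2.61% of all. The shift was not a matter of gene ends alone: the medians there were -0.30 at gene ends, -0.24 in gene bodies and -0.20 outside genes. In GFP high cells the 3 chromosomes had a median of 0.074. On the other chromosomes the GFP low median was 0.0006, with 1524 higher and 794 lower peaks (2.78% and 1.45% of 54876). Gene ends there kept a median of -0.057. The chromosomes with a GC-rich median promoter had the lower medians, with r = -0.75 over 22 chromosomes and -0.65 over 19 without these 3, a description over points that share both libraries. Chromosome 8, with a median difference of 0.027, had no promoter windows and is not among the 22. Chromosome 16, with the highest median promoter GC (63.3%), had a median difference of only -0.075, against -0.31 on chromosome 22 (63.0%). The part of base composition, or of DNA content, in these shifts was not tested. Falls of single peaks on these chromosomes stand against these medians.

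**Figure D4:**
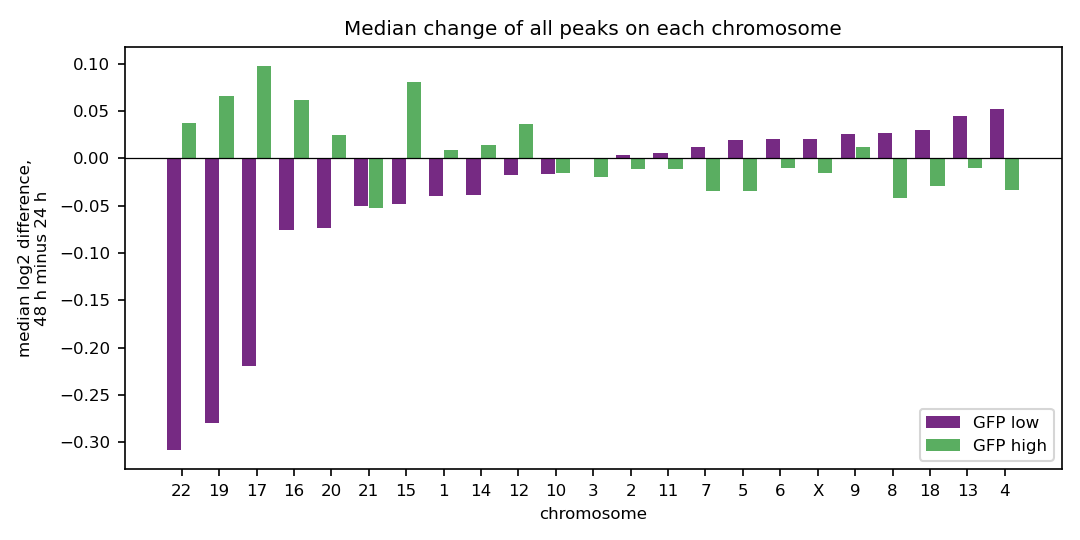
Median log2 difference, 48 h minus 24 h, over all peaks of each chromosome, in GFP low (purple) and GFP high cells (green), ordered by the GFP low value. Chromosomes 22, 19 and 17 stand below the others in GFP low cells and are above 0 in GFP high cells.

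The level at 72 h lay near that at 48 h for both called sets. The higher peaks had a median of 4.43, 7.45 and 6.76 CPM at 24, 48 and 72 h in GFP low cells, and 8.60, 9.15 and 8.88 CPM in GFP high cells. GFP low cells were thus below GFP high cells at all 3 times, by a median log2 difference of -0.80 at 24 h, -0.15 at 48 h and -0.28 at 72 h. The lower peaks had 6.84, 4.16 and 4.69 CPM in GFP low cells and 6.28, 5.70 and 5.79 CPM in GFP high cells. Here GFP low cells were above GFP high cells at 24 h (0.28) and below them at 48 h (-0.33) and 72 h (-0.24). The 24 h and 48 h values of GFP low cells chose these peaks and are descriptions. For the higher set the choice favours low readings at 24 h and high readings at 48 h, and for the lower set the reverse. The step from 48 to 72 h, and the differences from GFP high cells at 24 and 48 h, use those same readings. The 72 h and GFP high libraries took no part in the choice. Over the same interval, 61.3% of the higher peaks and 36.0% of the lower peaks were above 0 in GFP high cells, against 52.6% of all 58719, with medians of 0.075, -0.11 and 0.015. Across peaks, r between the GFP low and GFP high differences was 0.10 in gene bodies, 0.10 outside genes and -0.22 at gene ends, with no shared libraries.

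**Figure D5:**
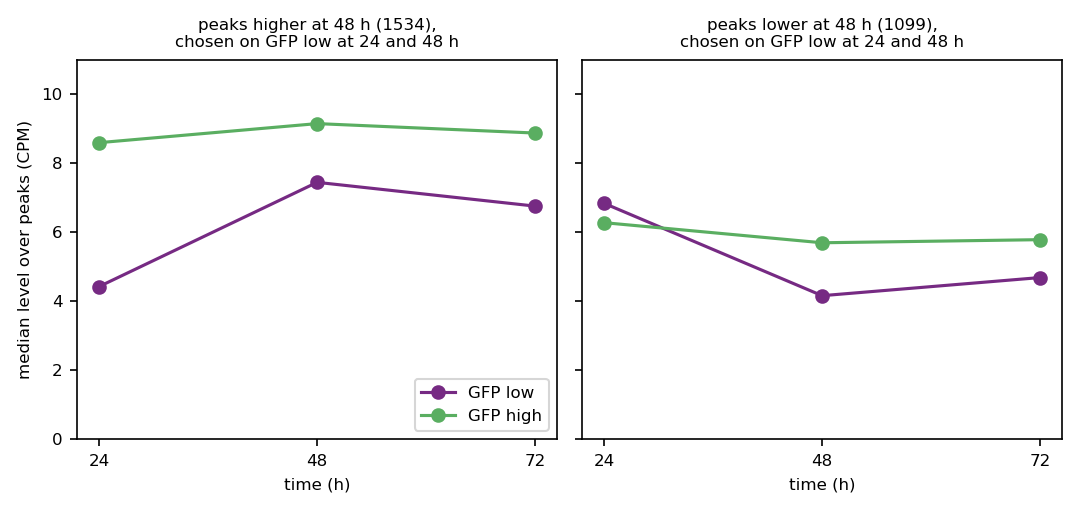
Median CPM over the 1534 higher peaks (left) and 1099 lower peaks (right) at 24, 48 and 72 h in GFP low (purple) and GFP high cells (green); each point is 1 library. In GFP low cells the median is 4.43, 7.45 and 6.76 CPM for the higher peaks and 6.84, 4.16 and 4.69 CPM for the lower peaks.

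Peaks that were lower in GFP low than in GFP high cells at 72 h, a contrast of libraries that the 48 h against 24 h comparison does not use, did not drift down in GFP low cells in this interval. At 72 h GFP low cells were at least 2-fold above GFP high cells at 65 of 71318 peaks (0.0911%) and at least 2-fold below at 2732 (3.83%). Those at least 2-fold lower at 72 h and averaging at least 100 counts numbered 1168 and had a median 48 h minus 24 h difference of -0.014, with 63 higher and 69 lower. The 5057 that were 1.5 to 2-fold lower at 72 h had 0.042, with 299 higher and 213 lower. The same peaks had medians of -0.15 and -0.10 over this interval in GFP high cells. Both called shares were above background in these groups: 5.39% higher and 5.91% lower among the 1168, against 2.61% and 1.87% of all. These peaks were weak, with a median of 5.12 CPM at 48 h and 5.23 CPM at 24 h for the 1168, where all 58719 had 9.10 and 9.11 CPM, and weak peaks pass a fold limit more easily. Peaks that differed less than 1.5-fold at 72 h, 51508 in all, had a median of -0.025.

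Of 102 peaks of light zone and CD40 response genes, 0 were higher and 5 lower (4.90%, against 1.87% of all), with a median of -0.16 and 77.5% of peaks below 0, against a median of -0.020 over all 58719 peaks. Lists unrelated to the germinal centre had medians nearly as low, at -0.11 over 70 housekeeping peaks and -0.13 over 29 peaks of aryl hydrocarbon receptor genes. Without chromosomes 17, 19 and 22 the median of the remaining 94 was -0.14, and all 5 lower peaks remained. They lay in or near NFKB1, BCL2A1, CD86 and SLAMF1. In NFKB1, a subunit of the NF-kB factors that CD40 activates, a gene-body peak had 2.04, 2.56 and 3.10 CPM at 48 h and 4.42, 4.34 and 5.78 CPM at 24 h, a difference of -0.90 (-1.44 to -0.35). Near BCL2A1, an anti-apoptotic target of NF-kB, 2 peaks were lower, the stronger change having 2.49, 3.68 and 3.30 CPM at 48 h and 6.10, 4.79 and 5.78 CPM at 24 h (-0.80). CD86, a costimulatory receptor of centrocytes, held a peak with 4.52, 4.79 and 4.17 CPM at 48 h and 7.89, 5.93 and 7.24 CPM at 24 h (-0.64), and GFP high cells had 7.25 CPM at 48 h and 7.27 CPM at 24 h there. Columns did not overlap at these 3 peaks, and the CD86 difference was -0.56, under 1.5-fold, without one 24 h column. Over the whole list the GFP high median was 0.052.

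Of 145 peaks of dark zone genes, 4 were higher and 1 lower, with a median of 0.033. FOXP1, a forkhead transcription factor of B cells, held 3 of these 5. Its strongest rise had 7.58, 6.46 and 6.60 CPM at 48 h and 4.42, 2.74 and 2.74 CPM at 24 h, a difference of 1.06 (0.58 to 1.54), and another gene-body peak rose by 0.92, while one more peak was lower (-0.63). CCND3, the D-type cyclin of dividing centroblasts, had 17.9, 14.0 and 13.2 CPM at 48 h and 5.86, 9.93 and 9.79 CPM at 24 h in a gene-body peak (0.79). BACH2, a repressor of plasma cell fate, had 5.54, 5.68 and 5.34 CPM at 48 h and 3.11, 3.42 and 3.43 CPM at 24 h (0.72). The columns of the 2 times were apart at all 3 genes. The share of the list that was higher, 2.76%, is close to the 2.61% of all peaks, and the list's lower share was 0.69% against 1.87%.

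Regulators of B-cell identity had 3 higher and 8 lower peaks of 280 (1.07% and 2.86%, against 2.61% and 1.87% of all), with a median of -0.022. IKZF1 (Ikaros) held 3 of the 8 lower peaks, of which the largest fall, 29.4 kb from the gene, had 4.41, 4.46 and 5.24 CPM at 48 h and 7.65, 7.53 and 8.52 CPM at 24 h (-0.74). PAX5, the master regulator of B-cell commitment, had one gene-body peak with 3.28, 2.12 and 2.43 CPM at 48 h and 5.14, 4.22 and 5.09 CPM at 24 h (-0.88). Neither gene's columns overlapped. RUNX3 (-0.77), MEF2B on chromosome 19 (-0.68), EBF1 (-0.65) and BCL11A (-0.62) held the others, while ETS1, BACH2 and TCF4 (0.61) held the 3 rises. Without one column RUNX3 ranged from -1.21 to -0.46 and EBF1 came to -0.47, each under 1.5-fold at that end. The 29 gene-end peaks of the list had a median of -0.23, against -0.079 for all gene ends. Of all 280 peaks, the 23 on chromosomes 17, 19 and 22 had a median of -0.33 and the other 257 one of -0.011. All gene ends on those chromosomes had a median of -0.30. The list's gene-end median without them was not computed.

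Genes of B-cell receptor signalling were split, with 5 higher and 4 lower peaks of 219 (2.28% and 1.83%, near background) and a median of -0.050. Peaks near SYK, the kinase that starts the signal (0.79), PLCG2 (0.61), LYN (0.61) and BCL10 (0.59) were higher. Peaks near PIK3AP1 (-0.67), CD22, an inhibitory receptor on chromosome 19 (-0.66) and NFATC2 (-0.64) were lower. The columns overlapped at SYK and did not at PIK3AP1, and CD22 came to -0.56 without one 24 h column. Memory B-cell genes had 5 higher and 1 lower peak of 153 (3.27% and 0.65%, median 0.015), and within 10 kb of the genes 2 of 114 were higher (1.75%), below the share of all peaks. In BCL2, the anti-apoptotic gene, 15.04, 17.6 and 16.6 CPM stood at 48 h against 9.44, 7.42 and 11.9 CPM at 24 h (0.75), and ITGB1 had 2 rises (0.70 and 0.60), the larger being 0.58 without one 24 h column. The 1 fall of the list was in CD44, an adhesion receptor, with 2.6, 3.68 and 2.43 CPM at 48 h and 6.46, 6.16 and 4.60 CPM at 24 h (-0.96). Plasma cell genes had 1 higher and 0 lower of 57 (1.75% and 0%, median -0.015), the rise being in CD38, with 9.95, 10.4 and 10.4 CPM at 48 h and 4.42, 5.48 and 7.05 CPM at 24 h (0.83).

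Migration and adhesion genes had 1 higher and 3 lower peaks of 94 (1.06% and 3.19%). All 3 lower peaks were on chromosomes 17 and 19, at CCR7, a homing receptor (-0.88 and -0.59), and ARHGEF1 (-0.59), and without chromosomes 17, 19 and 22 the median was 0.025, against -0.056 with them. ITGA4, an integrin, had the rise, with 21.0, 19.2 and 21.8 CPM at 48 h and 10.4, 13.2 and 15.9 CPM at 24 h (0.63). With 1 column left out, ITGA4 came to 0.50 and ARHGEF1 to -0.32. AP-1, BATF and MAF factors had 0 higher and 2 lower of 69 (2.90% lower against 1.87% of all), both on chromosome 19. At the start of JUNB the columns had 11.1, 8.80 and 11.6 CPM at 48 h and 16.9, 13.9 and 18.3 CPM at 24 h (-0.64, -0.92 to -0.35), while GFP high cells had 13.8 CPM at 48 h and 10.8 CPM at 24 h (0.36). A peak near FOSB had a difference of -0.60. JUNB came to -0.53 and FOSB to -0.37 without one 48 h column, both under 1.5-fold. For MHC class II presentation, 5 genes of the list had a peak that could be compared. Of their 20 peaks 1 was lower (5%), at RFXANK on chromosome 19 (-0.62). Other lists had few calls. Interferon response genes had 1 higher of 60 (1.67%), at ISG20 (0.64). Of 80 cell cycle and DNA replication peaks, CDK6 and CCND3 were higher (2.5%) and CDK1 lower (1.25%). p53 response and apoptosis genes had 3 higher of 128 (2.34%), at TP53INP1, BCL2 and GADD45A. Stress response genes had 1 lower of 59 (1.7%), at HMOX1 on chromosome 22. The shares of these lists were below the 2.61% higher and 1.87% lower of all peaks. Aryl hydrocarbon receptor genes had 0 of 29 in either direction, and housekeeping genes 1 lower of 70 (1.43%), near EEF1A1 (-0.88). With 1 column left out, RFXANK (-0.50), ISG20 (0.54), CDK1 (-0.47), GADD45A (0.51) and HMOX1 (-0.39) also came to under 1.5-fold. Of the 70 housekeeping peaks 74.3% were below 0.

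Subunits of the BAF complex had 3 higher and 3 lower peaks of 147 (2.04% each way, near background), with a median of -0.076 in GFP low cells and 0.096 in GFP high cells. The peak at the start of SMARCA4 on chromosome 19 had 15.8, 16.3 and 17.8 CPM at 48 h and 19.5, 23.2 and 20.3 CPM at 24 h, a difference of -0.33 (-0.56 to -0.09), which is close to the chromosome's median of -0.28. GFP high cells had 19.7 CPM at 48 h and 13.1 CPM at 24 h at that peak (0.59). The gene is degraded as a protein, so its own accessibility does not check the degradation. SMARCA2, which encodes the alternative ATPase, had 88.9, 100.4 and 101.1 CPM at 48 h and 94.2, 91.8 and 93 CPM at 24 h at its stronger gene-end peak, a difference of 0.062 (-0.043 to 0.17). ARID1B, a large DNA-binding subunit, had 2 rises (0.93 and 0.69) beyond its ends and SS18 had 1 (0.68). Peaks near SMARCE1 on chromosome 17 were lower (-0.79 and -0.64), as was 1 in BCL7C (-0.63), and the larger SMARCE1 fall was -0.54 without one 48 h column.

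Markers of other cell types were measured in the same way. T-cell markers had 4 higher and 0 lower of 36 peaks (11.1% higher against 2.61% of all), at CD28 (0.73), CD2 (0.65), ZAP70 (0.60) and LCK (0.59), with a list median of 0.027. CD28 came to 0.51, CD2 to 0.56 and ZAP70 to 0.38 with 1 column left out. The strongest gene-end peaks of T-cell markers, found for 6 of 14 genes, summed to 77.9 CPM at 48 h and 70.0 CPM at 24 h. None of the 4 higher peaks lay within 1 kb of a gene end. B-cell markers had 0 higher and 3 lower of 66 (4.55% lower against 1.87% of all), at CD22, PAX5 and EBF1, and a median of -0.14. Their strongest gene-end peaks, found for 7 of 9 genes, summed to 215.3 CPM at 48 h and 229.2 CPM at 24 h, with MS4A1 higher and CD79B and PAX5 lower, as given above. Outside chromosomes 17, 19 and 22 the B-cell median was -0.044. Myeloid markers had no calls among 10 peaks. Epithelial and stromal markers had 2 lower of 24 (8.33%), both near COL1A1 on chromosome 17, one of which was -0.54 without one 24 h column. The part of other cells in the result was not tested.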

How the data were processed

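Omni-ATAC-seq libraries from Raji cells of low or high GFP at 24, 48 and 72 h were used. The deposited table holds raw whole-number counts per peak made by the authors, not normalised, in 18 columns of 7106939 to 11171849 counts. The submitters' processing notes name hg38, R 4.2.1, deepTools, BWA and FastQC without their roles. The peak caller and the handling of duplicates and of the transposase offset are not given in the sources at hand. Duplicates, or both ends of a fragment counted apart, would widen the noise of a count. Column headers use D1 for 24 h, D2 for 48 h and D3 for 72 h. Columns that share a V number, which the labels do not tie to replicates, did not deviate together (correlations of 0.00369, -0.00123 and 0.00191).

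Columns of a group were summed, since they differed by a constant 1.80 times the counting variance. Log2 CPM used TMM over the 6 summed libraries (edgeR 4.0.16 in R 4.3.3, prior count 2), and 95% intervals used counting variance times that factor. They cover counting error only. Calls needed a 2-fold difference, or a 1.5-fold one at an average of at least 100 counts. Peaks took the protein-coding gene containing their centre, or the nearest within 50 kb, of 19931 genes in a RefSeq table on GRCh38.p14 (59535 of 71318 peaks). Exons, introns and UTRs were not separated. Script steps were tested on simulated data.

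Named peaks (averaging at least 100 counts, 1 per gene) were the 8 largest rises and falls, the 5 largest each way at gene ends, the 5 genes with most peaks past 1.5-fold each way, up to 3 members of each list, and ends of SMARCA4 and SMARCA2; some of these are not reported here. Comparison, lists and rules were chosen with earlier results of these data known. Alternatives were other scalings, prior counts, count minimums, gene-end widths, columns left out, and edgeR and DESeq2 1.42.0 on the 6 columns.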

Additional observations from a re-analysis of the deposited data

Results flagged for a closer look

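Some results had opposite signs in GFP low cells and in GFP high cells from 24 to 48 h. With 1 library per GFP level and time the differences were not tested. The RHOT1 peak on chromosome 17 had a log2 difference, 48 h minus 24 h, of -0.92 in GFP low cells and 0.58 in GFP high cells. The JUNB peak on chromosome 19 had -0.64 in GFP low and 0.36 in GFP high cells. Without one 48 h column the GFP low value at JUNB was -0.53. The median of gene-end peaks was -0.079 in GFP low and 0.090 in GFP high cells. The median on chromosomes 17, 19 and 22 was -0.26 in GFP low and 0.074 in GFP high cells. Both named peaks lie on those chromosomes.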

How the results depend on the processing

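Counts by fold depended on the handling of weak peaks more than on scaling. The 245 peaks at least 2-fold higher became 133 with a prior count of 10, 80 with DESeq2 on 6 columns, and 272 to 428 with 1 column left out. Here and below, the DESeq2 and edgeR counts by fold also needed an adjusted p below 0.05 on the columns. The other counts carry no such filter. The 149 at least 2-fold lower became 78, 20 and 182 to 278; the shift passed 1.5 times for rises without any 24 h column (372 to 428) and for falls without any 48 h column (242 to 278). The 1534 at least 1.5-fold higher became 695 with DESeq2, 2730 with no minimum count, 320 at a mean of at least 300 counts and 1680 to 1879 with 1 column left out. The 1099 at least 1.5-fold lower became 656 with edgeR on 6 columns, 665 with the replicate block by V number, 268 with DESeq2, 1991 with no minimum, 117 with at least 300 and 1259 to 1499 with 1 column left out. The replicate block gave 270 and 147 at 2-fold and 1282 higher at 1.5-fold. Tests on the 6 columns concern 2 libraries, not the times: at an adjusted p of 0.05 edgeR called 3177 higher and 2607 lower, and DESeq2 1300 and 897. The minimum of 300 and setting each chromosome's median to 0 were added after the data were seen, and the second left 1586 higher and 831 lower at 1.5-fold. The gene-end median was below 0 and the intergenic median above 0 in all settings run. With library size scaling, DESeq2 size factors, loess scaling, TMM over 2 libraries and chromosome medians set to 0, in this order, the gene-end median was -0.065, -0.053, -0.056, -0.062 and -0.049, and -0.091 for ends within 500 bp. In the same order the gene-body median turned to 0.0092, 0.021, 0.010, 0.012 and 0.0074, and 0.00012 for ends within 2 kb. The intergenic median was 0.040, 0.052, 0.041, 0.043 and 0.035. There were 1212 values under other settings over 101 named peaks. Of these, 1176 stayed within 1 counting standard error of the reported value and 36 moved further. That limit is narrower than the counting interval, so a value that moved further can still lie inside the interval. None of the 80 named peaks past 1.5-fold changed sign, and changes of sign were not counted for the other named peaks. Of these 80, 21 came to under 1.5-fold with 1 column left out. The cause of these shifts was not tested. A change under 1.5-fold at a mean count under 100 was not detectable at this depth.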

Other observations

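Among peaks with no protein-coding gene within 50 kb, which were chosen after their values were seen, the largest fall passed every fall near a gene. It lay at chr14:64654093-64654593, with 2.38, 1.89 and 2.13 CPM at 48 h and 7.65, 9.47 and 5.09 CPM at 24 h in GFP low cells, a log2 difference of -1.74 (counting interval -2.29 to -1.18). GFP high cells had 3.12 CPM at 48 h and 4.73 CPM at 24 h there. A region of chromosome 5 held neighbouring gene-less rises, at chr5:158283185-158283685 (8.71, 9.02 and 9.99 CPM at 48 h and 3.47, 3.08 and 4.41 CPM at 24 h, 1.31) and at chr5:158194443-158194943 (33.7 CPM at 48 h and 14.5 CPM at 24 h, 1.21). In GFP high cells these peaks differed by 0.10 and 0.18. Both lie on the chromosome of EBF1, whose own gene-body peak at chr5:158744606-158745106 was lower in GFP low cells (-0.65).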
